A study of Daphnia magna with 12 samples.

Results

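In neonates of the water flea Daphnia magna, 209 of 46334 gene rows met a rule for transcripts that were low after both C2mimCl and CholCl and stayed near the control level after C12mimCl. The study sequenced mRNA from whole bodies in 12 libraries, 3 for each of 4 groups: blank ASTM medium (control), C2mimCl (1-ethyl-3-methylimidazolium chloride), C12mimCl (labelled 1-dodecyl chloride-3-methylimidazolium) and CholCl (cholinium chloride). Unfed animals spent 48 h in each salt at the EC20, an effect concentration for 20% of the response. The animals of every group were neonates of brood 3, less than 10 h old at the start, and each library is a pool of 90 active animals from a vessel of its own that held 120. Neither molar concentrations nor the effect endpoint were given, so the salts stand at matched effect levels, and only animals still active at the end were sampled.

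C2mimCl and C12mimCl are ionic liquids, salts with a bulky organic cation and a low melting point. Both have chloride and a methylimidazolium ring, with an ethyl chain in the first and a dodecyl chain in the second. Long-chain imidazolium ions are surfactants that insert into lipid membranes. Cholinium is a small quaternary ammonium ion, and animals use choline to make phosphatidylcholine, acetylcholine and the methyl donor betaine. Gene rows carry an identifier and no name, so no gene role, sequence or pathway can be given, and the transcripts are described by their levels.

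The rule worked on group medians of CPM (a gene's reads relative to all gene reads of its library, scaled with TMM factors), with 0.1 CPM added to each median. It asked for a control value of at least 5, for C2mimCl and CholCl values of at most 0.25 times control, and for a C12mimCl value between 0.5 and 2 times control. Of 20266 gene rows with 10 or more reads in total, 10690 had the control value. Of these, 348 were low after C2mimCl, 1452 after CholCl and 294 after both. The C12mimCl condition then left 209, removing 46 genes at 2 times control or more and 39 at 0.5 times control or less. The 209 genes are 84.3% of the 248 genes that were low after C2mimCl with C12mimCl in its window, and 32.2% of the 650 that were low after CholCl in the same way. Because measured values chose the genes, their distances from control are a description and support nothing by themselves.

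Genes just inside and just outside each limit differed little. At the control limit, Dapma7bEVm001240 had a control median of 5.16 CPM and Dapma7bEVm018644, left out, 4.89 CPM. At the C2mimCl limit, Dapma7bEVm003583 had a ratio to control of 0.248 and Dapma7bEVm000254, left out, 0.2503. At the CholCl limit, Dapma7bEVm000328 had a ratio of 0.2495 and Dapma7bEVm001266, left out, 0.2506. At the lower C12mimCl limit, Dapma7bEVm000816 had 0.501 and Dapma7bEVm010402, left out, 0.496. At the upper one, Dapma7bEVm010313 had 1.997 and Dapma7bEVm019925, left out, 2.01. No gap in the values set the 209 genes apart at these limits.

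The libraries held 12502019 to 15539051 reads in genes. Reads that the counting assigned to no gene were 6.32% to 8.39% of all reads in controls, 5.83% to 7.61% after C2mimCl, 8.11% to 10.1% after C12mimCl and 5.25% to 5.83% after CholCl. C2mimCl replicate 1 stood apart from its group. Across the 15847 genes tested, its log2 CPM correlated at r = 0.936 with the control mean and at r = 0.896 with the mean of C2mimCl replicates 2 and 3, where genes are not independent replicates. Results that rest on this library are given with and without it.

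Taken as one sum, the 209 genes held 2.28%, 2.83% and 1.41% of gene reads in control replicates 1, 2 and 3. After C2mimCl they held 1.89% in replicate 1 but 0.27% and 0.311% in replicates 2 and 3. After C12mimCl the sum was 3.63%, 3.65% and 3.06%, and after CholCl 0.17%, 0.19% and 0.316%. The group means were 2.17% ± 0.715 in controls, 0.824% ± 0.925 after C2mimCl, 3.45% ± 0.337 after C12mimCl and 0.225% ± 0.0787 after CholCl (SD, n = 3 each). The CholCl libraries all lay below every control, and C2mimCl replicate 1 lay among the controls. The widest half-width of the 95% Wilson intervals on these shares was 0.01 percentage points, which covers counting error only. In whole-body pools, fewer cells that express these genes and less of their RNA per cell cannot be told apart.

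The share of reads in no gene ran in the same order as these sums among the vessels of the control, C2mimCl and C12mimCl groups. It was 6.32% in control replicate 3 against 7.87% and 8.39% in the other controls, and in C2mimCl it was 7.61% in replicate 1, 5.83% in replicate 2 and 6.14% in replicate 3. After C12mimCl it was 9.83%, 10.1% and 8.11%. Within CholCl the order was the reverse, with 5.83%, 5.51% and 5.25% in replicates 1, 2 and 3 while the sum was highest in replicate 3. With this share as a covariate, added after the data were seen, the median log2 fold change of the 209 genes went from -1.67 to -1.27 after C2mimCl and from -3.51 to -2.51 after CholCl. Group and share differ together, so their parts cannot be told apart in full.

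**Figure D1:**
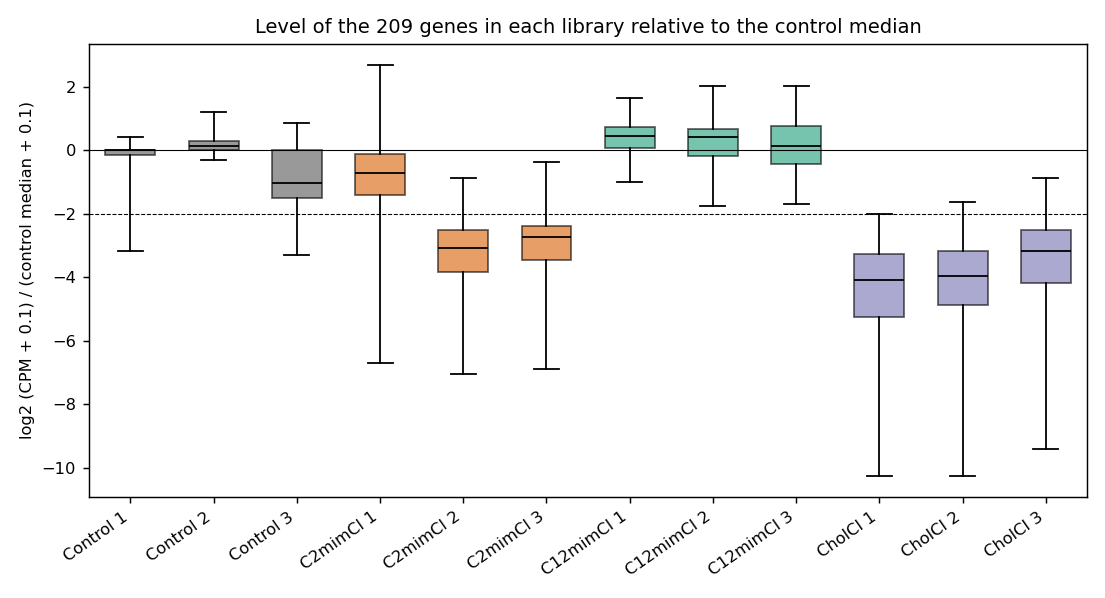
Level of the 209 genes in each library on the log2 scale, as CPM plus 0.1 divided by the control median plus 0.1; boxes span the middle 50% of genes with the median as a line, whiskers reach the lowest and highest gene, and the dashed line marks 0.25 times control. C2mimCl replicates 2 and 3 and the CholCl libraries sit low, whereas C2mimCl replicate 1 has a median of 0.607 times control and control replicate 3 one of 0.493.

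Gene by gene, the median ratio to the control median was 0.119 and 0.15 in C2mimCl replicates 2 and 3 and 0.607 in replicate 1. In the CholCl libraries it was 0.0597, 0.0647 and 0.112. By group medians the typical gene was 6.48-fold below control after C2mimCl and 13.8-fold below after CholCl. At least 10-fold lower were 56 genes after C2mimCl and 141 after CholCl, and at least 20-fold lower were 17 and 77. Every CholCl library lay below every control for 195 of the 209 genes, where 36% of the 10690 genes with the same control minimum did so. The corresponding count for C2mimCl was 76, against 9.9% of those genes, and 202 for C2mimCl replicates 2 and 3 alone, against 24.7%. The rule used these contrasts, so nothing is read from the excess.

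The control vessels themselves differed in these genes. The highest control was a median of 2.79 times the lowest, against 1.37 times over the 10690 genes, and at least 2 times for 77.5% of the set against 13.3%. Control replicate 3 was at or below 0.5 times the control median for 107 of the 209 genes, namely 22 at most at 0.25 and 85 above it. The edgeR estimate of the coefficient of variation between replicates had a median of 0.581 in the set and 0.202 over the tested genes with that control minimum. It is taken within the 4 groups over all 12 libraries, C2mimCl replicate 1 included, and not from the controls alone.

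The most abundant gene of the set, Dapma7bEVm004274, had 1879, 2183 and 1039 CPM in controls, 1399, 296 and 292 after C2mimCl, 3497, 3576 and 2935 after C12mimCl, and 136, 136 and 282 after CholCl. Its C2mimCl replicate 1 value lay within the control range, and the other C2mimCl and all CholCl values lay far below it. This gene alone held 8.22% of the control reads of the set, and the 8 most abundant genes together held 30.9%. CPM is not corrected for transcript length, so this is an order of reads and not of molecules.

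Dapma7bEVm010172 followed the same course, with 1267, 1399 and 716 CPM in controls, 656, 103 and 99.5 after C2mimCl, 2448, 2588 and 1465 after C12mimCl, and 24.8, 23.5 and 54.8 after CholCl. Dapma7bEVm028548 had 560, 589 and 265 CPM in controls, 380, 65.8 and 66.7 after C2mimCl, and 10.2, 6.19 and 24.7 after CholCl. In both, CholCl lay below each C2mimCl library. Dapma7bEVm028424 and Dapma7bEVm010275 were different in that respect, since their CholCl values overlapped those of C2mimCl. The former had 423, 118 and 108 CPM after C2mimCl and 95.7, 77.1 and 207 after CholCl. The latter had 268, 51.9 and 44.1 CPM after C2mimCl and 60.4, 50.6 and 138 after CholCl. Dapma7bEVm000486 likewise overlapped, with 448, 42.8 and 73.6 CPM after C2mimCl and 23.6, 73.4 and 65.0 after CholCl, against 835, 764 and 389 CPM in controls.

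Dapma7bEVm020161 and Dapma7bEVm009494 had another order of control vessels. The former had 323, 828 and 1242 CPM in controls, so that replicate 1 and not replicate 3 was lowest, and 128, 183 and 161 CPM after C2mimCl, where all 3 vessels were low. The latter had 403, 681 and 674 CPM in controls and 219, 73.6 and 136 after C2mimCl. Its 3 C2mimCl libraries all lay below its controls.

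**Figure D2:**
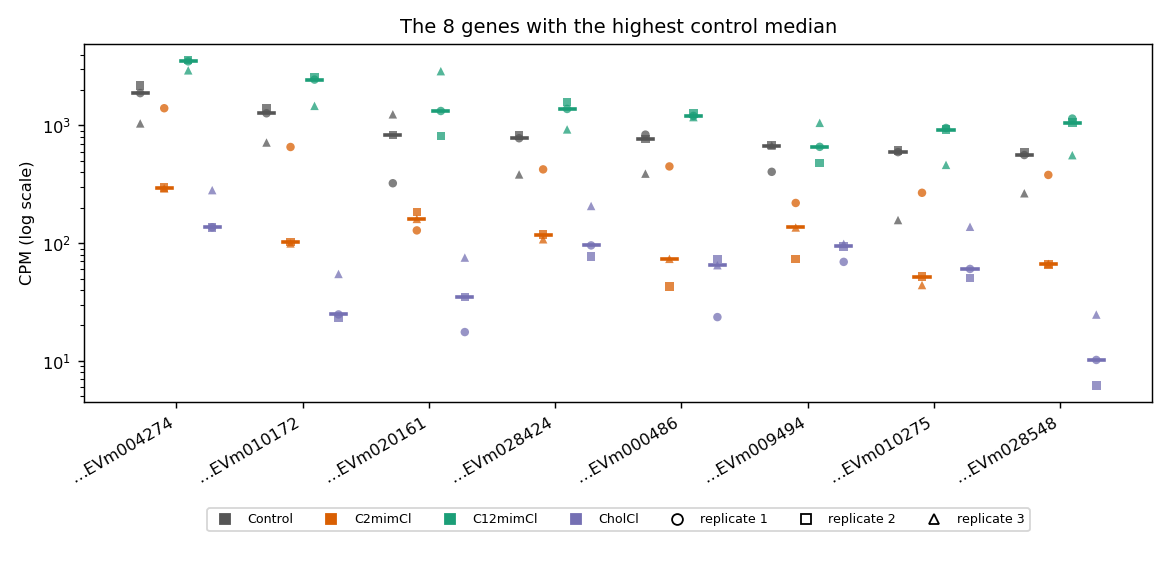
CPM on a log axis of the 8 genes with the highest control median, with 1 point per library, the marker shape giving the replicate number and a bar at the group median; identifiers are shortened by their common prefix. In 6 of the 8 genes control replicate 3 is the lowest control and C2mimCl replicate 1 lies well above the other C2mimCl libraries, and the other 2, Dapma7bEVm020161 and Dapma7bEVm009494, have control replicate 1 lowest.

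The genes with the deepest falls in both groups were moderately expressed in controls. Dapma7bEVm008439 had 2346, 1849 and 435 reads in controls, 449, 10 and 13 after C2mimCl, and 0, 0 and 1 after CholCl. With 1 read over the CholCl group, controls were 4270 times as high (95% counting interval 766 to 168708). Dapma7bEVm011174 had 352, 392 and 70 reads in controls, 187, 1 and 1 after C2mimCl, and 2, 0 and 2 after CholCl. Dapma7bEVm011173 had 188, 197 and 45 reads in controls, 106, 3 and 0 after C2mimCl, and 0, 1 and 1 after CholCl. In these 3 genes C2mimCl replicate 1 held over 100 reads while the other C2mimCl libraries held at most 13. Dapma7bEVm005157 was of the same kind, with 176, 8 and 5 reads after C2mimCl, 4, 3 and 5 after CholCl, and 545, 563 and 132 in controls. Over the whole set, 8 genes had at most 3 reads in the CholCl group, and none had so few after C2mimCl. Dapma7bEVm005606 was the only gene of the set with 0 reads after CholCl, which makes it at least 101-fold lower than in controls, where it had 329 reads, when 3 reads are taken as the floor for the group.

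Dapma7bEVm013021 was low in each treated library of both salts. It had 27.0, 26.6 and 20.7 CPM in controls, 2.32, 1.65 and 1.60 after C2mimCl, 27.3, 20.6 and 31.5 after C12mimCl, and 0.738, 0.482 and 0.559 after CholCl. All 3 C2mimCl vessels were low in it, replicate 1 at 0.0905 times the control median. C12mimCl lay in and around the control range.

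C2mimCl replicate 1 departed from its group over most of the set. It exceeded both other C2mimCl libraries in 180 genes (86.1%), and it was the highest C2mimCl library in 46.1% of the 10690 genes. It was at least 2 times their mean in 175 genes (83.7%, against 12.4% of the 10690 genes). It was at least 4 times their mean in 142, without a share over all genes to set beside them. The median excess was 5.59-fold, whereas replicates 2 and 3 were within 2-fold of each other in 172 genes. Against the control median, replicate 1 was above 0.5 in 133 genes, from above 0.25 to 0.5 in 39 and at most at 0.25 in 37. It lay within the control range in 92 genes, above every control in 34 and below every control in 83. In the 133 and the 39 genes alike, then, replicate 1 missed the limit of 0.25. Their label of lowered by C2mimCl rests on 2 vessels of 3, and replicate 1 met the limit only in the 37. Replicates 2 and 3 met it in 207 and 197 of the 209 genes. Where either of them missed it, the gene is among the 37, so some of the 37 also rest on 2 vessels.

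A library left out of the rule gives values that the choice of genes did not use. Chosen without C2mimCl replicate 1, the rule gave 235 genes, 198 of them shared with the 209. In those 235 genes the left-out library had a median of 0.638 times control, with 26 genes (11.1%) at most at 0.25 and 161 above 0.5. Left out in turn, C2mimCl replicate 2 was at most at 0.25 in 47 of 63 genes (74.6%) and replicate 3 in 45 of 74 (60.8%). These smaller sets had to pass with replicate 1 among the remaining pair. The CholCl libraries repeated the low level when left out, with 192 of 195, 194 of 199 and 180 of 217 genes at most at 0.25 for replicates 1, 2 and 3. Of the 10690 genes with the control minimum, 432, 533 and 380 were at most at 0.25 in C2mimCl replicates 1, 2 and 3. In CholCl replicates 1, 2 and 3 the counts over these 10690 genes were 1531, 1517 and 1085. The control libraries left out had medians of 0.867, 1.33 and 0.436 times the median of the remaining controls, in sets of 199, 134 and 224 genes.

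Some genes went up in C2mimCl replicate 1. Dapma7bEVm011058 had 431 CPM there while C2mimCl replicates 2 and 3 had 6.04 and 6.66, with 66.1, 96.6 and 41.9 in controls and 40.0, 160 and 46.5 after C12mimCl. Dapma7bEVm028497 had 459 CPM against 12.8 and 11.5, with 123, 177 and 79.3 in controls. Dapma7bEVm005800 had 169 CPM against 6.29 and 5.48, and Dapma7bEVm027442 had 57.7 against 1.24 and 3.46. In Dapma7bEVm011058, Dapma7bEVm028497 and Dapma7bEVm005800 the highest C12mimCl library was replicate 2, and in Dapma7bEVm027442 it was replicate 1. At the other end, Dapma7bEVm004760 had 0.122 CPM in C2mimCl replicate 1, 1.24 and 4.64 in replicates 2 and 3, and 7.16, 26.8 and 22.9 in controls. Dapma7bEVm000553 had 1.47 CPM against 4.55 and 4.97, with 15.2, 51.1 and 49.3 in controls. Dapma7bEVm002244 had 0.55 CPM against 4.30 and 1.60, and Dapma7bEVm005606 had 1 read against 5 and 8. In these 4 genes control replicate 1 was the lowest control and C12mimCl replicate 3 the highest C12mimCl library.

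**Figure D3:**
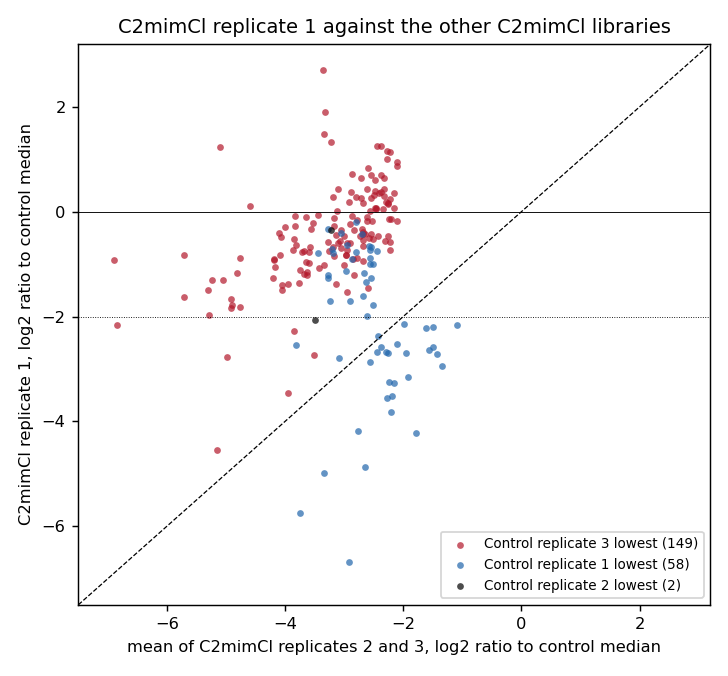
Each point is 1 of the 209 genes, with the mean of C2mimCl replicates 2 and 3 on the x axis and C2mimCl replicate 1 on the y axis, both as log2 ratios to the control median; the dashed diagonal marks equal values, the dotted line 0.25 times control, and colours give the control replicate with the lowest value. Most of the 149 genes lowest in control replicate 3 lie above the diagonal, and 30 of the 58 lowest in control replicate 1 lie at or under the dotted line.

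Over 15847 genes, tested by quasi-likelihood in edgeR with p-values adjusted by Benjamini-Hochberg, 10 of the 209 were called lower after C2mimCl than in controls (0.656% of genes tested were called lower) and none higher (0.776%). An unadjusted p below 0.05 was found for 117, but the share of all genes at that threshold was not computed, so nothing is read from this count. Without C2mimCl replicate 1, 165 were lower (9.33% of genes tested) and none higher (5.75%). The count was 2, 1 and 4 on leaving out control replicates 1, 2 and 3 in turn (0.111%, 0.0679% and 0.271% of genes tested called lower). Dropping C2mimCl replicates 2 and 3 gave 2 and 1 (0.135% of genes tested each), and it was 6 without C12mimCl replicate 1 (0.328%) and 5 without CholCl replicate 2 (0.364%). After CholCl, 189 were called lower (22.4% of genes tested) and none higher (15.9%), with 133 to 205 lower when single libraries were left out (13% to 28.6%). Without C2mimCl replicate 1, 205 were lower (28.6%) and none higher (20.4%). The rule set these contrasts, so the counts describe how steady the low level was and are no separate evidence of it.

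In most of the 10 genes called after C2mimCl, replicate 1 met the limit too. It was at most at 0.25 times control in 6 of them and at 0.326 to 0.435 in 4. For Dapma7bEVm013021 the log2 fold change was -3.72, SE 0.232 (adjusted p = 8.8e-05 by edgeR quasi-likelihood). Dapma7bEVm009494 fell by 2.04 on the log2 scale with SE 0.412 (adjusted p = 0.042 by edgeR quasi-likelihood). For the latter gene the adjusted p rose to 0.065, 0.13 and 0.093 on leaving out control replicates 1, 2 and 3 in turn, and to 0.1 and 0.15 on leaving out C2mimCl replicates 2 and 3. It was 0.073 without C12mimCl replicate 1 and 0.068, 0.073 and 0.066 without CholCl replicates 1, 2 and 3. For Dapma7bEVm004274 the log2 fold change after C2mimCl was -1.37 with SE 0.592 (adjusted p = 0.27 by edgeR quasi-likelihood), and -2.53 without C2mimCl replicate 1 (adjusted p = 0.0036).

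Within groups, the genes fell into 2 library profiles, which were noticed after the values were seen. Control replicate 3 was the lowest control in 149 genes and replicate 1 in 58, with 2 left for replicate 2. Among the 10690 genes the corresponding shares were 41.3%, 25.5% and 33.1%, against 71.3%, 27.8% and 0.957% in the set. The order of the C12mimCl vessels went with that of the control vessels. Of the 149 genes, 128 (85.9%) had C12mimCl replicate 3 as their lowest C12mimCl library, against 46.6% of the 4420 genes with control replicate 3 lowest. Of the 58 genes, 54 (93.1%) had C12mimCl replicate 2 lowest, against 52.8% of the 2729 genes with control replicate 1 lowest. C12mimCl replicate 3 was highest in 52 of the 58 (89.7%), against 45.7% of those 2729 genes. Vessels were numbered within each group, and nothing in the labels pairs equal numbers.

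C2mimCl replicate 1 divided along the same line. Its median ratio to control was 0.727 in the 149 genes and 0.226 in the 58, whereas C2mimCl replicates 2 and 3 had 0.119 and 0.124 in the former and 0.121 and 0.203 in the latter. All 34 genes in which C2mimCl replicate 1 exceeded every control belonged to the 149, and in 28 of these C12mimCl replicate 2 was the highest C12mimCl library. Of the 37 genes with C2mimCl replicate 1 at most at 0.25 times control, 30 belonged to the 58. The CholCl libraries were alike in both profiles, with medians of 0.0645, 0.0665 and 0.112 times control in the 149 genes and 0.0509, 0.0622 and 0.112 in the 58. CholCl replicate 3 was the highest CholCl library in 109 of the 149 genes and in 41 of the 58.

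**Figure D4:**
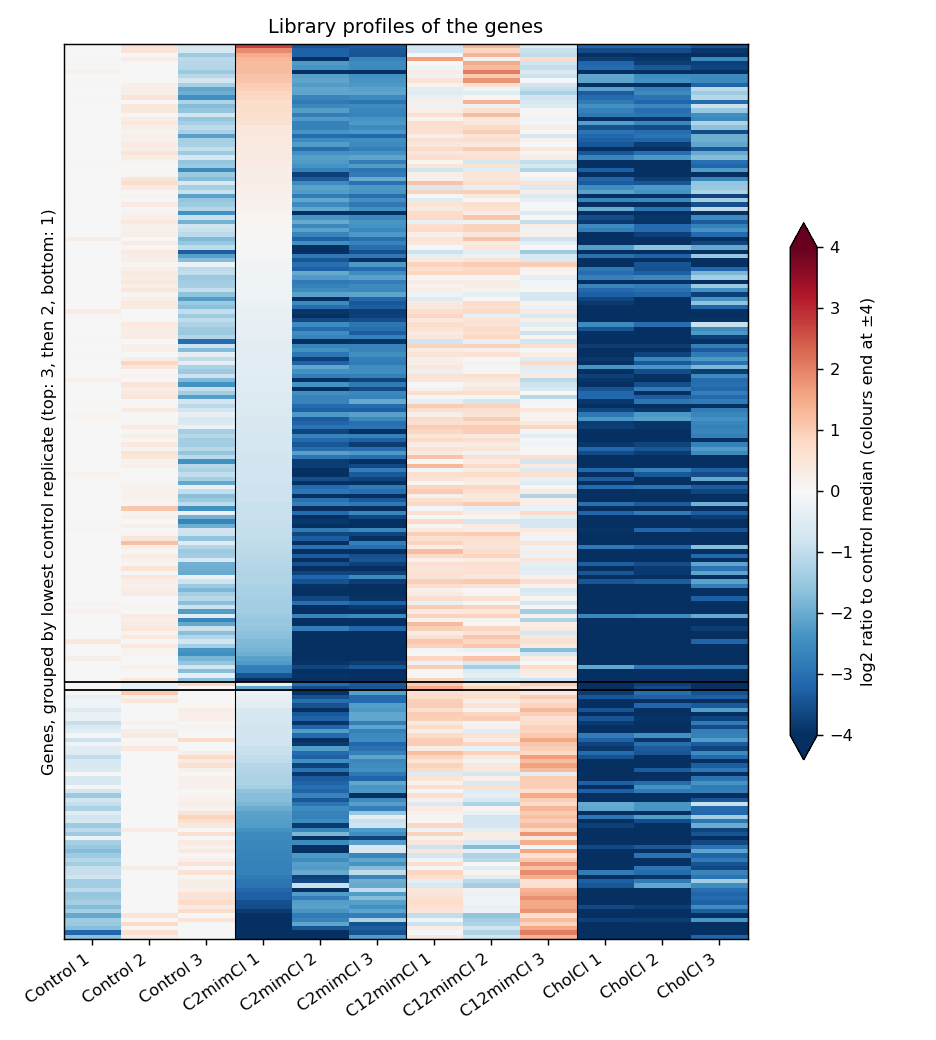
Log2 ratio to the control median of each of the 209 genes (rows) in each of the 12 libraries (columns), with black lines between genes whose lowest control is replicate 3 (top, 149), replicate 2 (2) and replicate 1 (bottom, 58), and within each block in falling order of C2mimCl replicate 1; colours end at ±4. The top block is pale or red in C2mimCl replicate 1 for most genes, and the bottom block is blue in control replicate 1 and reddest in C12mimCl replicate 3.

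Another group chosen from the same rows helps to place these values. In 184 genes that were low after CholCl only, with C2mimCl and C12mimCl both between 0.5 and 2 times control, C2mimCl replicate 1 had a median ratio of 0.615, close to the 0.607 of the 209 genes, while C2mimCl replicates 2 and 3 had 0.725 and 0.745. Control replicate 3 had a median of 1.18 in them and of 0.493 in the 209 genes. No test was made of these differences, because both sets were chosen on the same libraries.

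After C12mimCl the genes tended to lie above the control median. By the rule they could range from 0.5 to 2 times control, and their median was 1.29, with 161 of 209 (77.0%) above 1. Of the 8456 genes with the same control minimum and C12mimCl window, 54.4% lay above 1, with a median of 1.05. The 3 C12mimCl libraries lay above all 3 controls in 44 genes (21.1%), against 25.4% of the 10690 genes, which had no C12mimCl window. They lay below all of them in 1 gene (0.478%), and the share for this over the 10690 genes was not computed. None of the 209 was called in either direction in edgeR's quasi-likelihood test, where 13.8% of genes tested were called higher and 21.5% lower. The rule kept C12mimCl medians within 2-fold of control and the other genes tested had no such window, so nothing is read from the low count. At an unadjusted p below 0.05, 2 were higher, and the share of all genes at that threshold was not computed. DESeq2 and limma-voom each called 1 higher and none lower, where 39% and 36.2% of genes tested were called in either direction. Without C2mimCl replicate 1 edgeR called 27 higher (20.4% of genes tested) and none lower (25.4%). Single genes were called higher, and none lower, without C2mimCl replicate 2 and without C12mimCl replicate 2. There 35% and 26.2% of genes tested were called in either direction. The median log2 fold change was 0.58, and with the percentage of reads in no gene as a covariate it was -0.46.

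CholCl and C2mimCl were then set against each other. The rule sets no limit on the difference between them, but it chose the genes on these same libraries and capped both groups, and far fewer genes met the cap for C2mimCl than for CholCl. The choice of genes therefore shapes this difference, and the counts and p-values that follow describe these libraries and are not independent evidence that the salts differ. By group medians CholCl lay below C2mimCl in 186 of the 209 genes, at most at 0.5 times C2mimCl in 116 and within 2-fold in the other 93. In edgeR's quasi-likelihood test 81 were lower after CholCl than after C2mimCl and none higher at an adjusted p below 0.05, where 17.6% of genes tested were called lower and 11.6% higher. At an unadjusted p below 0.05, 131 were lower and none higher, without a share over all genes to set beside them. DESeq2 and limma-voom called 120 and 18 lower and none higher. Of genes tested they called 34.8% and 26.5% in either direction, and 20.2% and 13.9% lower. All 3 CholCl libraries lay below all 3 C2mimCl libraries in 88 genes, against 28.2% of the 10690 genes.

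Much of this difference went with C2mimCl replicate 1. Without it, 30 of the 209 genes were lower after CholCl, a share slightly below the 15.8% of genes tested. Only 1, Dapma7bEVm010620, was higher, against 11.1% of genes tested. The median log2 difference over the set was -1.83 with the 12 libraries and -0.85 without that library, against medians over all genes tested of -0.07 and 0.02. The count was 16 and 28 without CholCl replicates 1 and 2 (8.78% and 11% of genes tested called lower). With the 12 libraries, 1 gene of the set had a 95% interval of the difference wholly within 2-fold, against 42.6% of all genes tested. Without C2mimCl replicate 1 it was 11, against 45.7% of all genes tested. The interval held 0 for 150 genes of the set, and the share of all genes for this was not computed. The 11 genes with an interval within 2-fold were among these 150. For the rest of the 150, these libraries show neither a difference nor a level equal within 2-fold.

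Single genes are described with and without C2mimCl replicate 1. Dapma7bEVm013021 had a log2 difference of -1.62 with SE 0.269 (adjusted p = 0.0023 by edgeR quasi-likelihood), and -1.43 without C2mimCl replicate 1 (adjusted p = 0.0067). Dapma7bEVm028548 had -3.61 with SE 0.805 (adjusted p = 0.0099), and -2.26 without that library (adjusted p = 0.018). Dapma7bEVm010172 had -3.03 with SE 0.741 (adjusted p = 0.014) and -1.54 without it (adjusted p = 0.02), but the call was lost without CholCl replicate 1 or 2 (adjusted p = 0.063 and 0.055). Dapma7bEVm011555 had 384, 30 and 40 reads after C2mimCl and 1, 0 and 5 after CholCl, a log2 difference of -5.93 with SE 1.2 (adjusted p = 0.0066 by edgeR quasi-likelihood) and of -4.20 without C2mimCl replicate 1 (adjusted p = 0.0095).

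Dapma7bEVm008217 had 348, 15 and 22 reads after C2mimCl and 1 read over the CholCl group, which is 388 times as high after C2mimCl (95% counting interval 69.2 to 15350). Of these C2mimCl reads, 348 came from replicate 1, and the 37 reads of replicates 2 and 3 gave a ratio of 62.7 (10.6 to 2544). By edgeR quasi-likelihood its adjusted p was 0.0088, and 0.018 without C2mimCl replicate 1. Dapma7bEVm008439 had 472 C2mimCl reads against 1, or 475 times as high (84.9 to 18810). Here 449 reads came from replicate 1, and the 23 reads of the other pair gave a ratio of 39.0 (6.33 to 1606). It was called with the 12 libraries (adjusted p = 0.013 by edgeR quasi-likelihood) and without C2mimCl replicate 1 (adjusted p = 0.035), but not without CholCl replicate 1 (adjusted p = 0.055). With limma-voom the adjusted p was 0.085 for Dapma7bEVm011555, 0.081 for Dapma7bEVm008217 and 0.14 for Dapma7bEVm008439.

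In 2 other genes the intervals included 0. Dapma7bEVm028424 had a log2 difference of -0.75 with a 95% interval of -2.01 to 0.52 (adjusted p = 0.34 by edgeR quasi-likelihood), and 0.18 without C2mimCl replicate 1 (interval -0.83 to 1.19). Dapma7bEVm010275 had -0.52 with an interval of -2.18 to 1.14 (adjusted p = 0.62 by edgeR quasi-likelihood), and 0.80 without that library (interval -0.65 to 2.25). These intervals reach past 2-fold, so equal levels are not shown. Dapma7bEVm004274 was called lower after CholCl with the 12 libraries, at -1.81 with SE 0.6 (adjusted p = 0.045 by edgeR quasi-likelihood). Without C2mimCl replicate 1 it was -0.66 (adjusted p = 0.2). Leaving out control replicates 1 and 2 in turn gave an adjusted p of 0.063 and 0.058. It was 0.064, 0.062 and 0.061 without C12mimCl replicates 1, 2 and 3, and 0.15 and 0.13 without CholCl replicates 1 and 2.

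**Figure D5:**
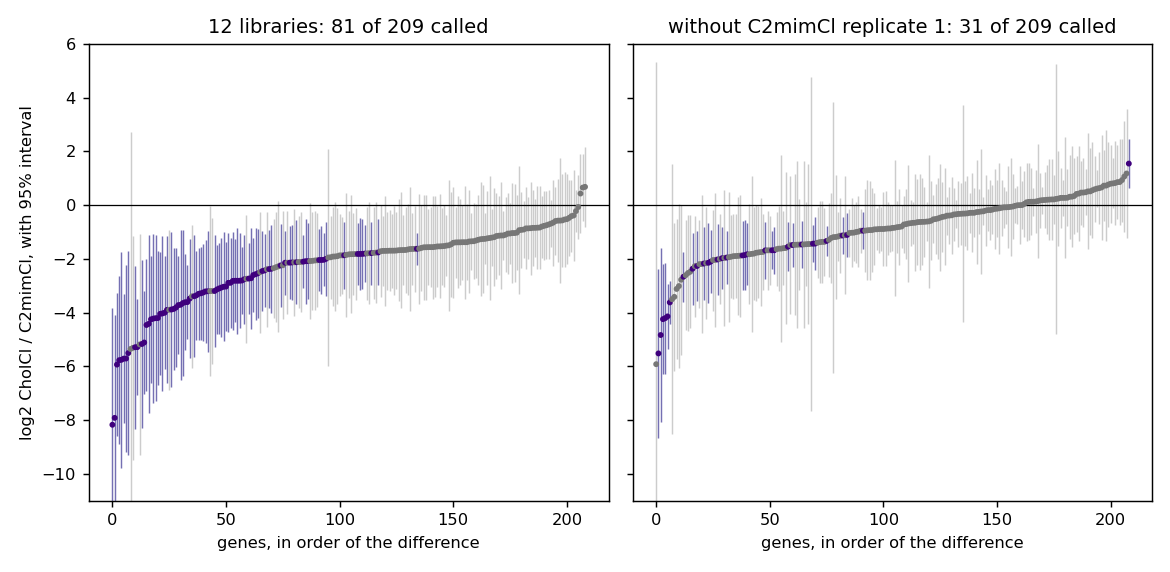
Log2 difference of CholCl from C2mimCl for each of the 209 genes in rising order, with 95% intervals, for the 12 libraries (left) and without C2mimCl replicate 1 (right); purple marks genes with adjusted p below 0.05, and the longest intervals run past the axis. On the left 81 genes are called, all lower after CholCl, and on the right 31, of which 1 is higher. Over all genes tested, 29.2% and 27% were called in either direction.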

How the data were processed

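Whole-body mRNA was measured in 12 libraries. The authors deposited raw read counts by gene, whole numbers without normalisation, and 5 summary rows per library. Trimmomatic 0.39, STAR 2.7.3a and HTSeq are named per the submitters' processing notes. The kit was stranded per the labels' protocols, and the build, the annotation and whether counting used strand were not given. Counts of near-identical, overlapping or antisense genes are therefore uncertain. Summary rows stayed out of library sizes: reads in no gene were 5.25% to 10.1% of each library and reads with no unique position 7.79% to 10.0%. Of the identifiers, 0 matched the 28335 genes of the reference table for assembly ASM2063170v1.1.

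CPM used TMM factors over gene rows with 10 or more reads in total. Tests used the counts in R 4.3.3 with edgeR 4.0.16: an expression filter (minimum count 10, minimum total 15), TMM, and a robust quasi-likelihood fit with 1 mean per group over 12 libraries, called at an adjusted p below 0.05. Scaling in the fit differed from that of the CPM by at most 1.54%. Standard errors came from the fold change and its F statistic. The fit and the rule were tested on simulated data. Replicates are separate vessels from the same cultures, and the closest pair differed by a chi-square of 16.4 per degree of freedom.

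The members, the rule and the tests were chosen with earlier results of these data known. Named genes were the 8 with the highest control median, the 4 lowest in both salts by the larger ratio, the 4 highest and 4 lowest in C2mimCl replicate 1, the 3 largest called differences between CholCl and C2mimCl, those next to each limit, and Dapma7bEVm013021. Dapma7bEVm010620 was chosen after its values were seen. Alternatives were RLE and upper-quartile scaling, other filters and limits, DESeq2 1.42.0, voom in limma 3.58.1, fitting only the 6 libraries of a comparison, a replicate block, and leaving out each library.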

Additional observations from a re-analysis of the deposited data

How the results depend on the processing

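The set held 209 genes with the 12 libraries, 62 with group means in place of medians (53 shared), 654 with a limit of 0.5 and 76 with a limit of 0.125, and 63 to 235 when single libraries were left out, with 63 and 74 without C2mimCl replicates 2 and 3 and 134 without control replicate 2. Under RLE, upper-quartile and no scaling it held 194, 163 and 265 genes, of which 192, 160 and 208 were shared.

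The count called in CholCl against C2mimCl was 81. It was 120 with DESeq2, 18 with limma-voom, 10 in the fit of the 6 libraries compared, and 16 to 114 when single libraries were left out. In alternatives added after the data were seen, it was 44 with the percentage of reads in no gene as a covariate. It was 52 (51 lower, 1 higher) without both control replicate 3 and C2mimCl replicate 1. Called lower over all genes tested were 17.6% in the main fit, 20.2% with DESeq2, 13.9% with limma-voom and 7.29% in the fit of 6 libraries. That share was 8.78% to 17.7% with single libraries left out, 16.8% with the covariate and 18% without both libraries. Upper-quartile scaling gave 74 (13.3% of genes tested called lower), and over all genes the median log2 difference went from -0.07 to 0.13. For C2mimCl against control the count was 10. It was 72 with DESeq2, 21 with limma-voom, 1 in the fit of 6 libraries, 1 to 165 when single libraries were left out, 36 with the covariate and 179 without both libraries. The share of all genes called lower moved as well, from 0.656% in the main fit to 3.23% with DESeq2, 0.896% with limma-voom and 0.0126% in the fit of 6 libraries. It was 0.0679% to 9.33% with single libraries left out, 2.23% with the covariate and 12.7% without both libraries. For CholCl against control 189 became 115 with the covariate and 133 to 205 when single libraries were left out. Over all genes tested, 22.4% became 17% and 13% to 28.6% called lower. For C12mimCl against control 0 became 2 with upper-quartile scaling, 1 with DESeq2, 1 with limma-voom and 0 to 27 when single libraries were left out, all higher. It was 20 in the fit of 6 libraries (1 lower, 19 higher), 15 with the covariate (6 lower, 9 higher) and 21 without both libraries (3 lower, 18 higher). Over all genes tested, 35.3% were called in either direction in the main fit and 41%, 39%, 36.2%, 21.1% to 45.9%, 37.5%, 30% and 49.4% in these settings. The rule's C12mimCl window held for the set alone, so nothing is read from the gap.

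Equal replicate numbers were not treated as pairs, since nothing in the labels links them and not every same-number correlation of deviations was above 0.1. Those of number 3 were positive in all 6 pairs of groups (r = 0.152 to 0.426), those of number 1 ran from -0.119 to 0.192 and those of number 2 from -0.406 to 0.195. The own number correlated best in 19 of 36 cases. With the replicate block, counts called lower were 63 for CholCl against C2mimCl (16.2% of genes tested), 19 for C2mimCl (0.764%) and 179 for CholCl (21.6%) against control. For C12mimCl against control 1 was called, higher, where 32.9% of genes tested were called in either direction. Changes of sign occurred in 2 named differences of CholCl from C2mimCl, neither called: Dapma7bEVm028424 to 0.18 without C2mimCl replicate 1, 0.11 with the covariate and 0.18 without both libraries, and Dapma7bEVm010275 to 0.80, 0.87 and 0.80. With single libraries left out they ranged from -1.29 to 0.18 and from -1.09 to 0.80. The causes were not tested. With 3 vessels a group and a wide spread in these genes, most differences between the salts under 2-fold could not be detected.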

Other observations

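The rule's C12mimCl window left out 46 genes that met every other condition but stood at 2 times control or more after C12mimCl, and 39 that stood at 0.5 times control or less, 27 of them at 0.25 times or less. Genes low after both C2mimCl and CholCl thus ranged from lowered by all 3 salts to raised by C12mimCl. Dapma7bEVm010620, the one gene higher after CholCl than after C2mimCl when C2mimCl replicate 1 was left out, differed by 1.55 on the log2 scale, SE 0.406, at an adjusted p of 0.019 in the quasi-likelihood test of edgeR. In that fit 11.1% of genes tested were called higher.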
